A study of Mus musculus with 3 samples.

Results

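The proteasome subunit genes were taken as all mouse symbols that begin with Psma, Psmb, Psmc, Psmd, Psme or Psmf, followed by a number and, for some, a letter, and that reached at least 50 unique molecular identifiers (UMIs) over 3 heart sections. Of 45 such symbols among the 32285 listed genes, 43 reached this number. The member just inside was Psme2b with 85 UMIs, and the nearest outside was the testis-type subunit Psma8 with 20. The thymus subunit Psmb11 had 1 UMI. The sections came from C57BL/6 mouse hearts and were measured with Visium, in which barcoded capture spots beneath a tissue section collect transcripts, and cells of more than 1 type may lie over the same spot. The sham mouse received vehicle by gavage for 7 days and then a needle pass without ligation. The I/R mouse received vehicle for 7 days, and its left anterior descending artery (LAD) was then ligated for 30 min and reperfused for 24 h. The SBP mouse received Shexiang Baoxin Pill, labelled MUSKARDIA, for 7 days and then the same ligation and reperfusion. Each condition had 1 section, so no test between conditions was possible, and all intervals below are 95% intervals of counting error only.

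The proteasome is the protease that degrades ubiquitin-tagged proteins. Its barrel-shaped core holds rings of alpha (Psma) and beta (Psmb) subunits, and regulatory caps of ATPases (Psmc) and non-ATPase subunits (Psmd) recognise, unfold and feed substrates into it. After interferon signals, and constitutively in many leukocytes, the catalytic subunits Psmb6, Psmb7 and Psmb5 are replaced by the immunosubunits Psmb9, Psmb10 and Psmb8, and the activator formed by Psme1 and Psme2 can take the place of a cap, which favours the production of peptides for antigen presentation. In cardiomyocytes the proteasome clears misfolded and sarcomeric proteins, and its activity is known to be affected by ischemia and reperfusion.

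The kept spots numbered 2234 in the sham, 2082 in the I/R and 1960 in the SBP section and held 25118258, 30238530 and 21631280 UMIs, with a median per spot of 10645, 14672 and 10653. Mitochondrial genes took 48.6%, 44.3% and 46.3% of the UMIs. The sections used the same slide barcodes, 1093 of which were in all 3, as the design of the slides implies. All 8 cardiomyocyte markers were present in each section, and their summed level was 38821 CPM (UMIs per 1000000 UMIs) in the sham, 28858 in the I/R and 35356 in the SBP section. The summed level of 16 leukocyte markers was 800 CPM in the sham, 1804 in the I/R and 1015 in the SBP section, with none at 0 in any section. Lyz2 alone was at 283, 695 and 346 CPM of this sum, and the lymphocyte markers Cd3e and Cd79a each had under 50 UMIs. Whether fewer cells of a type or less RNA per cell underlies such a level cannot be told apart in spots. Because CPM ratios of all genes were off-centre, each log2 ratio below is given relative to the median log2 ratio of all genes with at least 50 UMIs, which was 0.24 for I/R over sham, -0.17 for SBP over I/R and 0.08 for SBP over sham. A relative ratio of at least 0.5 in either direction was counted as past the fold.

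The core genes, the regulatory genes and the immunosubunits were all higher in the I/R section than in sham. The summed level of the 14 core genes was 1226 CPM in the sham, 1595 in the I/R and 1390 in the SBP section. That of the 20 regulatory genes was 1013 CPM in the sham, 1311 in the I/R and 1143 in the SBP section. Both groups were therefore highest in I/R and lowest in sham, with Poisson intervals that did not overlap between any 2 sections. Relative to all genes, the log2 ratio of I/R over sham was 0.14 (0.12 to 0.16) for the core and 0.13 (0.11 to 0.16) for the regulatory genes, and without centring it was 0.38 and 0.37. Of the members, 13 of 14 core and 18 of 20 regulatory genes lay above the median of all genes, which by construction splits all genes evenly. The differences were small for single genes. No core or regulatory gene passed the fold relative to all genes, where 15.8% of all genes were higher and 13.4% lower. Without centring some did, such as Psma5 and Psmd14, both at 0.69.

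**Figure D1:**
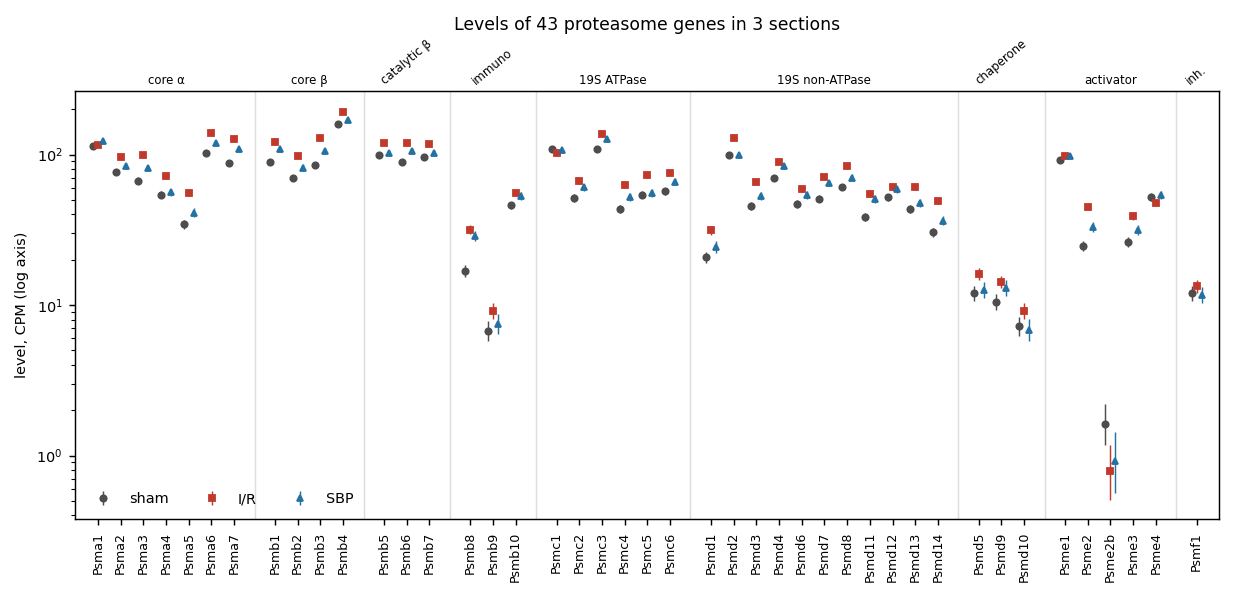
Levels of the 43 proteasome genes in CPM on a log axis in the sham (circles), I/R (squares) and SBP (triangles) sections, ordered by role; bars are exact 95% Poisson intervals. Most core and regulatory genes are highest in I/R, with Psma5 at 34.4, 55.7 and 41.1 CPM in sham, I/R and SBP, while Psmc1 and Psme4 are lowest there.

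Over all spots, the balance between core and regulatory transcripts was nearly the same in the 3 sections. There were 1.21 core UMIs per regulatory UMI in the sham, 1.22 in the I/R and 1.22 in the SBP section. The log2 change of this ratio was 0.01 for I/R over sham (-0.02 to 0.04) and -0.00 for SBP over I/R (-0.03 to 0.03). Over all spots, counting error alone thus allows a shift of about 0.04 at most. Outside leukocyte-high spots, a class described below, the ratio was 1.22 in the sham, 1.27 in the I/R and 1.22 in the SBP section. There the log2 change was 0.06 (0.03 to 0.10) for I/R over sham and -0.05 (-0.09 to -0.02) for SBP over I/R. Members also lay closer together than genes in general. Over the 42 members with at least 500 UMIs, the SD of the log2 ratio of I/R over sham was 0.21, against 0.47 over the 7790 genes with as many UMIs. The same SDs were 0.15 against 0.33 for SBP over I/R and 0.15 against 0.28 for SBP over sham. The members and these genes were not matched for level, and counting error in a ratio is larger for genes with fewer UMIs. These SDs describe genes within the same sections and are not a replicate error.

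Within the core, the alpha ring (0.15, 0.12 to 0.18) and the beta subunits without catalytic activity (0.17, 0.14 to 0.21) had higher relative ratios of I/R over sham than the catalytic subunits Psmb5, Psmb6 and Psmb7 (0.07, 0.03 to 0.12). In spots that are not leukocyte-high, a class described with the immunosubunits, the 3 ratios were 0.17, 0.21 and 0.17, so that the gap between the catalytic subunits and the alpha ring was no longer seen. Psma5, an alpha-ring subunit, was at 34.4 CPM (32.1 to 36.8) in sham, 55.7 (53.0 to 58.4) in I/R and 41.1 (38.4 to 43.9) in SBP. The 3 intervals were apart, and its relative log2 ratio of I/R over sham was 0.45 (0.34 to 0.57), the highest of the core. Psma1, of the same ring, was at 113.8 CPM in the sham, 115.3 in the I/R and 123.8 in the SBP section. It was the only core gene below the median of all genes in I/R, at -0.22 (-0.29 to -0.15), although its CPM was not lower there.

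In the regulatory cap, the non-ATPase subunits (0.19, 0.16 to 0.22) had a higher relative ratio of I/R over sham than the ATPases (0.05, 0.01 to 0.08). Psmd14, the deubiquitinase of the cap that removes ubiquitin chains from substrates, was at 30.4 CPM (28.3 to 32.7) in sham, 49.1 (46.6 to 51.6) in I/R and 36.4 (33.9 to 39.0) in SBP. Its relative ratio of I/R over sham was 0.45 (0.32 to 0.58). The ATPase group was lowered by Psmc1, which was at 108.4 CPM in the sham, 101.9 in the I/R and 106.9 in the SBP section and had a relative ratio of -0.33 (-0.40 to -0.25), whereas the other 5 ATPases lay between 0.09 and 0.29. The assembly chaperones of the cap, Psmd5, Psmd9 and Psmd10, were low in all sections, at 29.7 CPM together in the sham, 39.4 in the I/R and 32.5 in the SBP section.

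Since core and regulatory genes had like ratios over all spots, their promoters were searched for short motifs. RefSeq promoters of build GRCm38.p6, from 250 bases before to 50 after the start, were matched for 37 of the 43 members. The antioxidant response element core TGACNNNGC, the motif of NRF1 and NRF2, was found on either strand in 6 of the 37, which is 16.2%, against 14.0% of all 27025 genes in the table. The NF-Y box CCAAT was found in 13 members, or 35.1%, against 41.1% of all genes. Neither share stood far from that of all genes. A match is a description of letters and not a binding site. Psma5 and Psmd14, the core and the regulatory gene with the highest I/R ratio, are shown for the stretch before their start that holds no annotated exon, with CCAAT or its reverse complement ATTGG in capitals. Psma5 held none of the motifs (chr3:108256726-108256877, plus strand). Psmd14 held 1 such box in the stretch (chr2:61711494-61711693, plus strand).
Psma5: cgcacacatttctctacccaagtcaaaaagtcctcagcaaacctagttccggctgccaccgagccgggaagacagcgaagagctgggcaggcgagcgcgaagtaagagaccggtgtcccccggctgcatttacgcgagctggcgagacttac
Psmd14: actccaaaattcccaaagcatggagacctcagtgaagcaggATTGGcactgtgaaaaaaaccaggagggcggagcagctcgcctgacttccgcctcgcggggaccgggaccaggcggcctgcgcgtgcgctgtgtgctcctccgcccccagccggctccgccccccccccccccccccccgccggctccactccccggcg

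Over all 43 members, 2 were higher by at least 0.5 in I/R over sham, where 15.8% of all genes were, and 1 was lower, where 13.4% of all genes were. The higher members were the immunosubunit Psmb8 and the activator subunit Psme2, and the lower was Psme2b, which rests on 85 UMIs in all. Psme2b is a close copy of Psme2, so that its reads may be split between the genes and its value is uncertain. Without centring, 12 members were higher by at least 0.5 in I/R over sham, where 28.8% of all genes were. In SBP over I/R, no member passed the fold in either direction, where 7.46% of all genes were higher and 11.2% lower. In SBP over sham, 1 member was higher (Psmb8), where 6.87% of all genes were, and 1 was lower (Psme2b, -0.90, -1.75 to -0.10), where 6.80% were. Each share of members was below that of all genes.

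**Figure D2:**
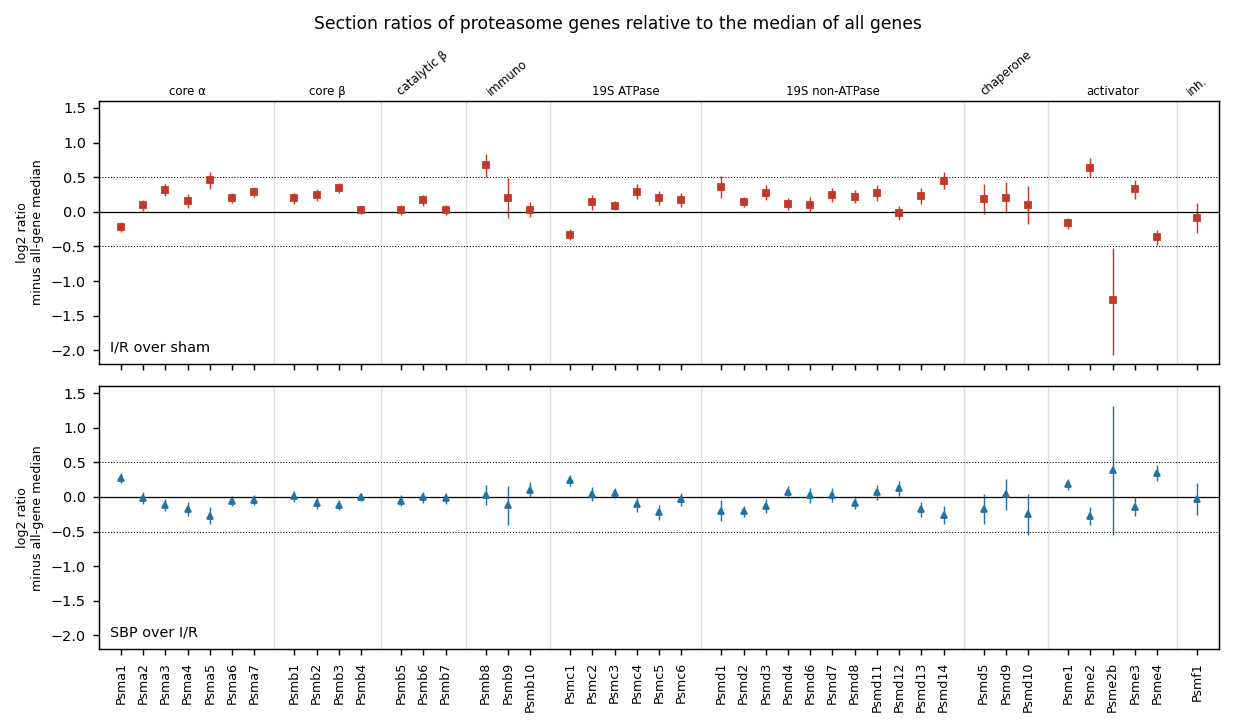
Log2 CPM ratio of each proteasome gene minus the median of all genes, for I/R over sham (upper panel, squares) and SBP over I/R (lower panel, triangles), with 95% counting intervals; dotted lines mark 0.5 and -0.5. In the upper panel most points lie just above 0, with Psmb8 (0.67) and Psme2 (0.64) above the dotted line and Psme2b (-1.28) below it, and in the lower panel all lie within the lines.

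The 3 immunosubunits did not have like ratios. Psmb8 lies on chromosome 17 from 34197721 to 34201454 on the plus strand of GRCm38, near Psmb9 from 34181987 to 34187764 on the minus strand. Psmb8 was at 16.9 CPM (15.3 to 18.6) in sham, 31.7 (29.8 to 33.8) in I/R and 28.9 (26.7 to 31.2) in SBP. It was higher in both injured sections than in sham, and the intervals of I/R and SBP overlapped. Its relative ratio was 0.67 (0.51 to 0.84) for I/R over sham and 0.69 (0.51 to 0.88) for SBP over sham. Psmb9 was at 6.77 CPM in the sham, 9.16 in the I/R and 7.49 in the SBP section, and its relative I/R ratio of 0.20 had an interval from -0.08 to 0.48. Psmb10 was at 46.0 CPM in the sham, 55.5 in the I/R and 53.1 in the SBP section, with a relative I/R ratio of 0.03 (-0.08 to 0.14). Of the immunosubunits, then, only Psmb8 had a relative interval of I/R over sham that lay wholly above 0.

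Each immunosubunit was set against the constitutive subunit whose place it takes. These ratios of UMIs compare sections and do not give the proportions of the proteins. For Psmb8 there were 17.0 UMIs per 100 of Psmb5 in the sham (15.3 to 18.9), 26.6 in the I/R (24.8 to 28.6) and 28.2 in the SBP section (25.8 to 30.9). The log2 change was 0.64 (0.46 to 0.82) for I/R over sham and 0.08 (-0.08 to 0.25) for SBP over I/R. Psmb5 itself was at 99.1, 119.3 and 102.4 CPM in sham, I/R and SBP, so that Psmb8 was the gene of the pair that differed more. Per 100 UMIs of Psmb6, which was at 89.9, 119.2 and 105.5 CPM, Psmb9 had 7.53 in the sham, 7.69 in the I/R and 7.10 in the SBP section. Per 100 UMIs of Psmb7, which was at 96.9, 116.9 and 102.6 CPM, Psmb10 had 47.5 in the sham, 47.5 in the I/R and 51.8 in the SBP section. The log2 changes of I/R over sham were 0.03 (-0.26 to 0.32) for Psmb9 against Psmb6 and -0.00 (-0.13 to 0.13) for Psmb10 against Psmb7.

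The pair that differed is shown by its promoters, with the motifs in capitals. The stretch of Psmb5 before its start (chr14:54618023-54618195, minus strand) held the antioxidant response element core TGACNNNGC. The stretch of Psmb8 (chr17:34198087-34198116, plus strand) is cut to 30 bases because it lies within an annotated exon, and it held the STAT element TTCNNNGAA. That element was found in 2 of 37 members, which is 5.41%, against 9.55% of all genes, and the interferon-stimulated response element core, searched as a pair of GAAA separated by any 2 bases, was found in 4 members, which is 10.8%, against 3.99%. None of the 3 immunosubunits held it in this window.
Psmb5: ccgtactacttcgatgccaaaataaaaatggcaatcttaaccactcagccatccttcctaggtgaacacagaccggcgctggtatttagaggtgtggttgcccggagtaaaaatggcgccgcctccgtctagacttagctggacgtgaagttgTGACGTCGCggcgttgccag
Psmb8: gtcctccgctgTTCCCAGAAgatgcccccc

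Because leukocytes carry immunosubunits, spots were also split by the summed level of the 16 leukocyte markers at the 95th percentile of sham. By this split 112 spots in the sham, 594 in the I/R and 275 in the SBP section were leukocyte-high, and their summed marker level was 4044, 5717 and 3931 CPM, against 610, 713 and 647 CPM in the other spots. In the leukocyte-high spots of I/R, Psmb8 was at 75.4 CPM against 19.6 CPM in the other spots, a relative ratio of 1.10 (0.92 to 1.29), and Psmb9 was at 18.4 against 6.60 CPM, a relative ratio of 0.63 (0.28 to 0.99). Psmb10 differed less, at 91.6 against 45.4 CPM and 0.17 (0.02 to 0.32). In the same spots the constitutive catalytic subunits were lower relative to all genes, with -0.54 (-0.65 to -0.43) for Psmb7, -0.31 for Psmb5 and -0.26 for Psmb6, and their sum was at -0.37 (-0.43 to -0.31) against -0.09 for the alpha ring and -0.11 for the other beta subunits. In CPM they were all higher, for example 137.2 against 111.2 for Psmb7, since the median of all genes differed by 0.84 between these spots. Cardiomyocyte markers were at 15754 CPM in the leukocyte-high spots of I/R and at 32510 CPM in the others, and their part in these ratios was not tested.

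The pattern in I/R and SBP differed once leukocyte-high spots were left out. Outside them, Psmb8 per 100 UMIs of Psmb5 was 15.4 in the sham (13.8 to 17.3), 18.0 in the I/R (16.3 to 19.9) and 25.6 in the SBP section (23.1 to 28.3). The sham and I/R intervals overlapped, while SBP lay above both. The log2 change of I/R over sham was thus 0.22 in place of 0.64, and that of SBP over I/R was 0.51 in place of 0.08. In CPM, Psmb8 in these spots was at 15.0 in the sham, 19.6 in the I/R and 25.3 in the SBP section, and its relative ratio was 0.34 (0.13 to 0.54) for I/R over sham and 0.37 (0.19 to 0.56) for SBP over I/R. Psmb10 per 100 UMIs of Psmb7 was 46.4 in the sham, 40.8 in the I/R and 48.2 in the SBP section, with I/R the lowest. Summed over the 3 immunosubunits, the relative ratio of I/R over sham was 0.07 (-0.03 to 0.17) without leukocyte-high spots and 0.23 (0.14 to 0.32) with them. The sum without these spots was an alternative chosen after the data had been seen. The leukocyte markers in these spots are given above, and their part in the level of Psmb8 was not tested.

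**Figure D3:**
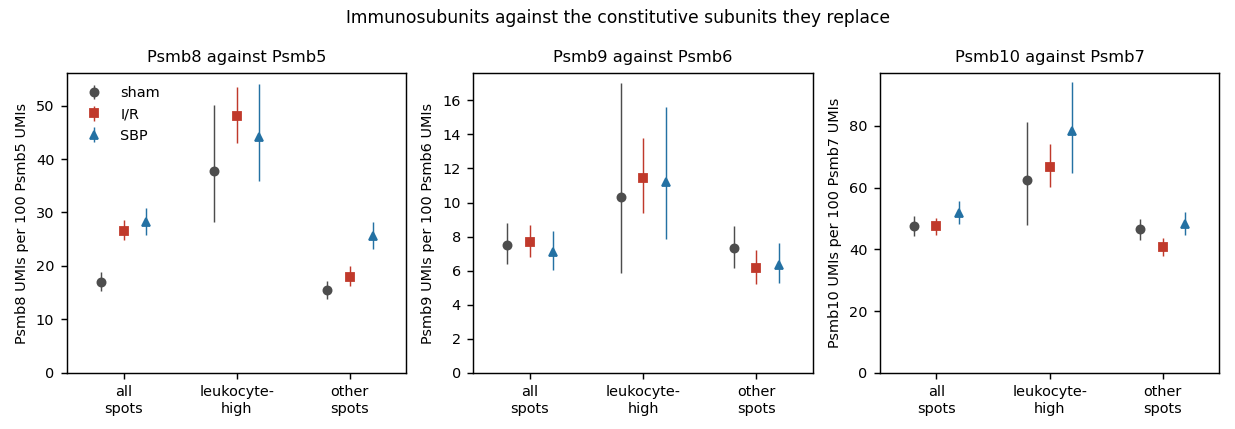
UMIs of each immunosubunit per 100 UMIs of the constitutive subunit it replaces, in all spots, leukocyte-high spots and the other spots, for sham (circles), I/R (squares) and SBP (triangles), with exact 95% counting intervals. Psmb8 against Psmb5 is 17.0, 26.6 and 28.2 over all spots and 15.4, 18.0 and 25.6 outside leukocyte-high spots, while Psmb9 and Psmb10 have overlapping intervals between sections over all spots.

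The activators of the core divided. Psme1 and Psme2 form an activator ring together and lie close to each other on chromosome 14, Psme1 from 55578123 to 55581529 on the plus strand and Psme2 from 55587441 to 55591113 on the minus strand. Psme2 was at 24.6 CPM (22.7 to 26.6) in sham, 45.1 (42.8 to 47.6) in I/R and 33.1 (30.8 to 35.7) in SBP, with intervals that were all apart. Psme1 was at 92.3 CPM in the sham, 97.2 in the I/R and 97.9 in the SBP section, with overlapping intervals. Their relative ratios of I/R over sham were 0.64 (0.50 to 0.78) and -0.17 (-0.24 to -0.09), and Psme2 per 100 UMIs of Psme1 was 26.7 in the sham, 46.5 in the I/R and 33.9 in the SBP section. In contrast to Psmb8, Psme2 kept most of its ratio outside leukocyte-high spots, where it was at 23.6 CPM in sham and 36.1 CPM in I/R, a relative ratio of 0.57 (0.41 to 0.73).

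Psme3, which forms a nuclear activator ring on its own, was at 26.4 CPM in the sham, 39.1 in the I/R and 31.5 in the SBP section, with a relative I/R ratio of 0.33 (0.19 to 0.47). Psme4, the large single-chain activator, lies on chromosome 11 from 30771726 to 30880361 on the plus strand. It was at 52.2 CPM (49.4 to 55.1) in sham, 47.7 (45.3 to 50.2) in I/R and 54.0 (50.9 to 57.2) in SBP. The relative ratio was -0.37 (-0.48 to -0.26) for I/R over sham and 0.35 (0.23 to 0.46) for SBP over I/R, 2 comparisons that share the I/R section. The intervals of sham and I/R overlapped in CPM, and that of SBP lay above I/R. Outside leukocyte-high spots the former was -0.09 (-0.21 to 0.02). Psmf1, an inhibitor of the core, was at 12.0 CPM in the sham, 13.3 in the I/R and 11.6 in the SBP section, with overlapping intervals.

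Compared with I/R, the SBP section had nearly the same proteasome levels relative to all genes. The relative log2 ratio of SBP over I/R was -0.03 (-0.05 to -0.01) for the core and -0.03 (-0.05 to -0.01) for the regulatory genes, and without centring both were -0.20. For the immunosubunits it was 0.06 (-0.02 to 0.14) with centring and -0.11 without, so that its direction depended on the scaling. The members with the highest relative ratios were Psme2b (0.39, -0.54 to 1.31), Psme4 and Psma1 (0.27, 0.20 to 0.34). Those with the lowest were Psme2 (-0.28, -0.41 to -0.15), Psma5 (-0.27, -0.39 to -0.15) and Psmd14 (-0.26, -0.39 to -0.14). The latter 3 were also among the 4 highest in I/R over sham, but both comparisons hold the I/R section and are not independent of each other. Against sham, the SBP section was at 0.10 (0.08 to 0.12) for the core, 0.09 (0.07 to 0.12) for the regulatory genes and 0.28 (0.19 to 0.37) for the immunosubunits. After Psmb8, the members highest in SBP over sham were Psme2 (0.35) and Psmd11, a subunit of the lid of the cap, at 0.33 (0.20 to 0.45), with 38.4 CPM in sham and 50.9 in SBP. The lowest besides Psme2b were Psmd10 at -0.16 (-0.49 to 0.16) and Psmf1 at -0.13 (-0.37 to 0.12), which did not differ beyond counting error.

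Spots were next divided by Ankrd1, a stretch-responsive gene of stressed cardiomyocytes. The 95th percentile of sham spots was 27.0 UMIs of Ankrd1 per 10000 UMIs, and 112 sham spots (5.01%), 479 I/R spots (23.0%) and 326 SBP spots (16.6%) lay above it. In all 3 sections core and regulatory levels were higher in the Ankrd1-high spots. The core was at 1489 against 1205 CPM in sham, 1882 against 1489 CPM in I/R and 1630 against 1337 CPM in SBP. The regulatory genes were at 1319 against 988 CPM in sham, 1582 against 1210 CPM in I/R and 1388 against 1089 CPM in SBP. Other genes were higher in these spots as well, with a median log2 ratio of all genes of 0.33, 0.23 and 0.21 in sham, I/R and SBP. Relative to it, the core was at -0.03 (-0.08 to 0.03) in sham, 0.10 (0.08 to 0.13) in I/R and 0.08 (0.04 to 0.12) in SBP, and the regulatory genes were at 0.08 (0.02 to 0.14), 0.15 (0.12 to 0.18) and 0.14 (0.10 to 0.19). In I/R, all 20 regulatory and 13 of 14 core genes lay above the median of all genes.

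The core had fewer UMIs per regulatory UMI in Ankrd1-high spots than in the others in every section, with 1.13 against 1.22 in sham, 1.19 against 1.23 in I/R and 1.17 against 1.23 in SBP. The log2 change was -0.11 (-0.19 to -0.03), -0.05 (-0.09 to -0.01) and -0.06 (-0.12 to -0.00), which is small beside the differences in level. The immunosubunits did not stand out by Ankrd1 in the injured sections. They were at 108 against 92.1 CPM in I/R and 104 against 86.4 CPM in SBP, which gave relative ratios of -0.01 (-0.12 to 0.11) and 0.06 (-0.11 to 0.21). Leukocyte markers summed to 1943 against 1753 CPM in I/R, 1393 against 932 CPM in SBP and 1243 against 765 CPM in sham between the same spots. Ankrd1-high spots also held more UMIs, with a median of 17348 against 14103 per spot in I/R, and the part of depth and of leukocytes in these ratios was not tested.

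In the I/R section, no member was higher by at least 0.5 in Ankrd1-high spots, where 7.85% of all genes were, and 2 were lower (Psme4 and Psme2b), where 13.3% of all genes were. Psme2b rests on 3 and 21 UMIs there, with a ratio of -1.61 (-4.00 to 0.14). The next lowest was Psme1, at 89.3 against 100.1 CPM (-0.40, -0.52 to -0.28). The highest members were all of the alpha ring, namely Psma5 at 77.1 against 47.7 CPM (0.46, 0.31 to 0.60), Psma3 at 131.3 against 87.0 CPM (0.36, 0.25 to 0.47) and Psma4 at 94.2 against 63.1 CPM (0.34, 0.21 to 0.47). The alpha ring as a whole was at 0.20 (0.16 to 0.24), against 0.01 (-0.04 to 0.06) for the beta subunits without catalytic activity. The non-ATPase subunits of the cap were at 0.18 (0.14 to 0.21). Of these, Psmd14 was at 64.6 against 43.3 CPM (0.34), just below Psma4. In the SBP section, 2 members were higher (Psmd14 and Psme2b), where 13.0% of all genes were, and 1 was lower (Psme4), where 15.6% were. Psmd14 was at 54.6 against 32.4 CPM (0.55, 0.31 to 0.78) and Psmf1 at 16.6 against 10.6 CPM (0.44, 0.01 to 0.86), while Psme2b rests on 6 and 14 UMIs. After Psme4, the lowest in SBP were Psme2 at 32.1 against 33.4 CPM (-0.26, -0.55 to 0.02) and the ATPase Psmc3 at 126.3 against 126.9 CPM (-0.21, -0.36 to -0.07). In the sham section, 4 members were higher, where 18.2% of all genes were, and none was lower, where 18.9% were. They were Psmd10 (0.80, 0.16 to 1.40, 27 UMIs in the 112 spots), Psmd14 (0.64, 0.33 to 0.94), Psmb8 (0.58, 0.14 to 0.99) and Psme2 (0.51, 0.15 to 0.86). The lowest in sham were Psme1 (-0.46, -0.70 to -0.22), Psma1 (-0.42, -0.64 to -0.21) and Psme4.

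**Figure D4:**
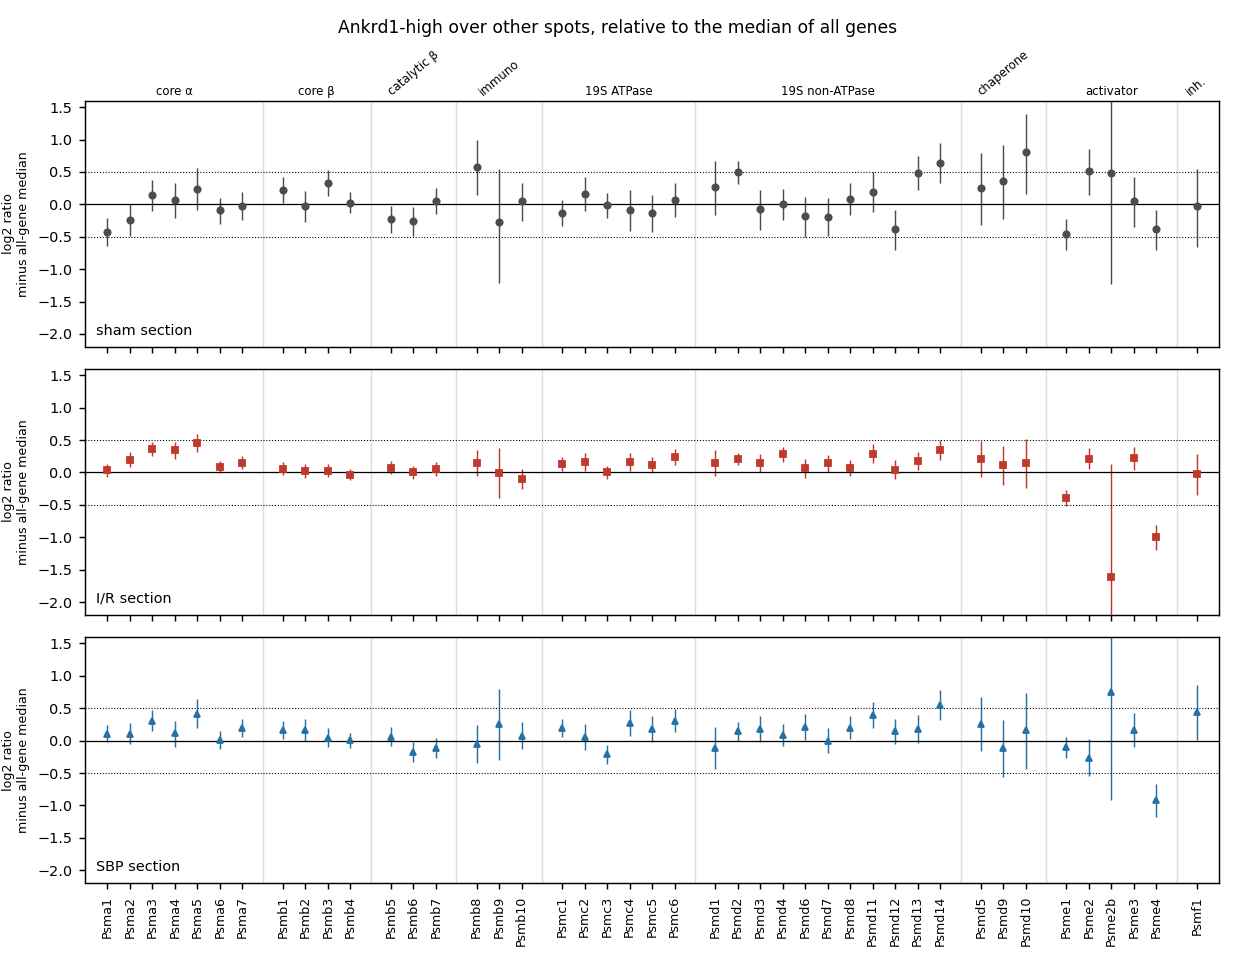
Log2 CPM ratio of Ankrd1-high over other spots for each proteasome gene minus the median of all genes, in the sham, I/R and SBP sections (top to bottom), with 95% counting intervals, cut at the frame for Psme2b; dotted lines mark 0.5 and -0.5. Psme4 lies at -0.39, -1.001 and -0.92, and most core and regulatory genes lie between the dotted lines.

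Psme4 had lower levels in the Ankrd1-high spots of both injured hearts. It was at 31.6 CPM (27.8 to 35.7) in the Ankrd1-high spots and 53.7 (50.7 to 56.8) in the other spots of I/R, and at 35.5 (29.8 to 41.9) and 58.1 (54.6 to 61.8) in SBP. In sham the levels were 50.4 (40.7 to 61.8) and 52.4 (49.5 to 55.4), with overlapping intervals. The relative ratio was -1.001 (-1.20 to -0.81) in I/R, -0.92 (-1.18 to -0.66) in SBP and -0.39 (-0.71 to -0.08) in sham. Among Ankrd1-high spots alone, the relative ratio of I/R over sham was -0.79 (-1.14 to -0.43). These spots also differed in summed markers, with relative ratios of -0.36 for cardiomyocytes, -0.79 for fibroblasts and -0.53 for smooth muscle. The same ratios were 0.03 for endothelial, 0.53 for leukocyte and 1.83 for erythroid markers, and the part of this make-up was not tested. Psme4 was also low in leukocyte-high spots, at 34.1 against 51.5 CPM in I/R and 36.7 against 53.1 CPM in sham. The cardiomyocyte markers were lower in the Ankrd1-high spots too, with 23256 against 30932 CPM in I/R, 28402 against 36894 CPM in SBP and 27549 against 39715 CPM in sham, and their part in the level of Psme4 was not tested.

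Over 5 bins of Ankrd1, cut at the 50th, 80th, 95th and 99th percentiles of sham, the core was higher in the highest than in the lowest bin of each section. It went from 1143 to 1653 CPM in sham, where the highest bin held 23 spots, from 1235 to 1906 CPM in I/R and from 1183 to 1659 CPM in SBP. The 3 sections lay closer together in the lowest bin than in the middle bin, where they were at 1350, 1789 and 1567 CPM. The regulatory genes went from 929 to 1350 CPM in sham, from 949 to 1572 CPM in I/R and from 922 to 1426 CPM in SBP. Psme4 went from 60.7 (55.7 to 66.1) to 30.6 CPM (24.9 to 37.1) in I/R and from 68.0 (62.4 to 74.0) to 32.0 CPM (23.3 to 42.8) in SBP, and was at 54.5 and 54.8 CPM in the lowest and highest bin of sham. The mitochondrial share of UMIs was lower in the highest bin, at 40.9% against 50.8% in the lowest bin of I/R, and its part was not tested.

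**Figure D5:**
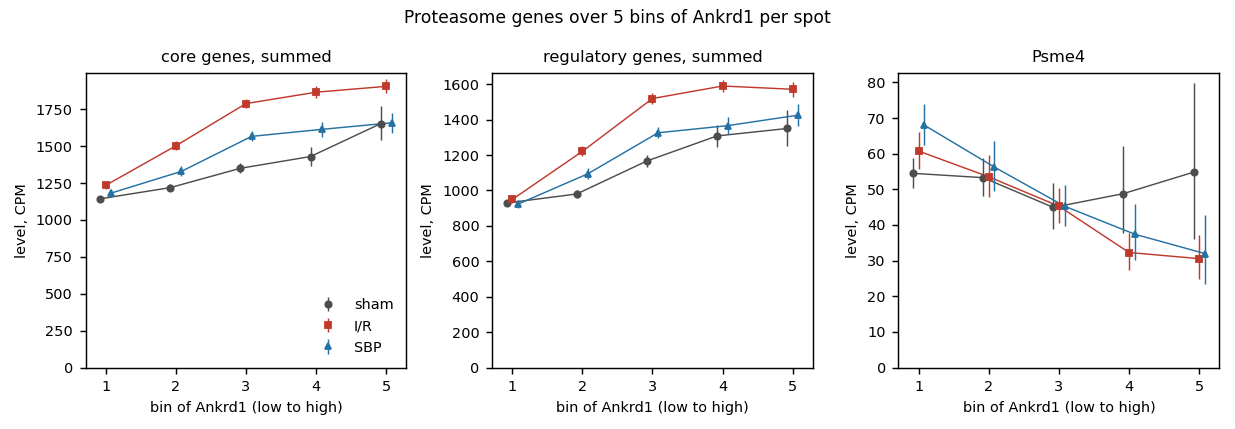
Levels in CPM of the summed core genes, the summed regulatory genes and Psme4 over 5 bins of Ankrd1 per spot, for sham (circles), I/R (squares) and SBP (triangles), with exact 95% Poisson intervals; each axis starts at 0. The core goes from 1235 to 1906 CPM in I/R, while Psme4 goes from 60.7 to 30.6 CPM. Levels are not centred on all genes.

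The Ankrd1-high and leukocyte-high spots overlapped in part. In I/R, 181 of the 479 Ankrd1-high spots were leukocyte-high, where 28.5% of all spots were. In SBP, 75 of 326 were, where 14.0% of all spots were, and in sham 16 of 112, where 5.01% were. In I/R the core was at 1305 CPM in spots high in neither, 1745 CPM in spots high in Ankrd1 alone, 2335 CPM in spots high in leukocyte markers alone and 2168 CPM in spots high in both. The immunosubunits were at 67.0, 86.6, 208 and 152 CPM in the same order. In SBP the core was at 1283, 1595, 1858 and 1776 CPM and the immunosubunits at 78.5, 92.3, 162 and 150 CPM. In CPM, core and immunosubunits were thus higher in either class than in neither. Relative to all genes, however, the core was lower in leukocyte-high than in other spots, at -0.16 (-0.18 to -0.13) in I/R, where 12 of 14 core genes lay below the median, -0.07 (-0.12 to -0.02) in SBP and -0.12 (-0.18 to -0.06) in sham, while the immunosubunits were at 0.53 (0.42 to 0.64) in I/R.

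Genes that build, supply or control the proteasome were described by the same counts. In I/R over sham, 15.8% of all genes were higher by at least 0.5 and 13.4% lower. Of the assembly factors, 5 of the 6 listed were analysed, and all 5 lay above the median of all genes in I/R over sham (median 0.16). Psmg3, an assembly chaperone, passed the fold with 9.20 CPM in the sham, 16.3 in the I/R and 9.89 in the SBP section (0.59). It was lower in SBP over I/R (-0.56), where 11.2% of all genes were lower by at least 0.5. Pomp, the maturation factor of the core, was at 98.2, 126.0 and 113.3 CPM (0.12). Among 9 other cap and associated proteins, 1 was higher by at least 0.5 in I/R over sham, where 15.8% of all genes were, and the median of the 9 was 0.03. This was Adrm1, a ubiquitin receptor of the cap, at 16.2 CPM in the sham, 32.9 in the I/R and 21.5 in the SBP section (0.78). None of 5 genes of proteasome transcription passed the fold, and Nfe2l1, which encodes the factor NRF1 that induces subunit genes when the proteasome is inhibited, was at 86.4 CPM in the sham, 76.4 in the I/R and 86.5 in the SBP section (-0.42). Of 6 ubiquitin genes 1 was higher, where 15.8% of all genes were, and 4 lay below the median of all genes. The higher gene was Rps27a (0.59), which encodes ubiquitin fused to a ribosomal protein, while the polyubiquitin gene Ubb (-0.05) lay near the median.

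Ubiquitin ligases of muscle were lower relative to all genes in I/R, although their summed level was 593 CPM in sham and 583 CPM in I/R. Of 8 listed, 1 was lower by at least 0.5 in I/R over sham, where 13.4% of all genes were. In SBP over I/R 2 were higher, where 7.46% of all genes were. The summed relative ratios of the 8 were -0.26 (-0.29 to -0.23) and 0.35 (0.32 to 0.38) in the 2 comparisons. Without leukocyte-high spots these ratios were -0.01 (-0.04 to 0.03) and 0.13 (0.10 to 0.17), with no ligase past the fold in either comparison. In those spots the 10th and 90th percentiles of all genes were -0.44 and 0.49 for I/R over sham. They were -0.41 and 0.36 for SBP over I/R, so that most genes did not pass the fold there either. The part of leukocyte and cardiomyocyte content was not tested. Fbxo32 (atrogin-1) was at 32.5 CPM in the sham, 26.5 in the I/R and 34.7 in the SBP section, and Trim54 was at 171.9, 161.3 and 222.7 CPM. Trim63 (MuRF1) was at 79.2, 92.8 and 93.5 CPM. In the Ankrd1-high spots of I/R, 3 of the 8 were lower by at least 0.5, where 13.3% of all genes were. They were Asb2 (-0.75), Fbxo32 (-0.81) and Trim55 (-0.87), the last at only 1.96 CPM in these spots. In the sham section 3 were lower as well, where 18.9% of all genes were, namely Asb2 (-0.54), Trim54 (-0.60) and Trim55 (-0.87). In SBP 2 were lower, where 15.6% of all genes were, namely Asb2 (-0.64) and Trim55 (-1.53). Of 10 antigen processing genes, 2 were higher in I/R over sham and 1 was lower, shares near the 15.8% and 13.4% of all genes. Without leukocyte-high spots, where the percentiles of all genes given above lay within the fold, none was higher and 1 was lower. The summed relative ratio there was -0.03 (-0.07 to -0.00) in place of 0.11. Tap1, a peptide transporter encoded beside Psmb9, was at 6.53 CPM in the sham, 10.9 in the I/R and 9.34 in the SBP section (0.51). Nlrc5, an activator of MHC class I genes, was at 1.15, 2.18 and 2.36 CPM (0.68), a low level at which its ratio is uncertain. Tapbp, a chaperone of peptide loading, was at 117.9, 92.6 and 105.5 CPM (-0.59).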

How the data were processed

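The 3 Visium sections, each a condition of its own, were analysed. The nuclei that were also sequenced were not analysed here. The values that the authors deposited are raw counts, namely UMIs for every gene and spot. Space Ranger 1.3.0 stands in the file headers and mm10 in the processing notes. The methods of the paper name a different release and the human genome, but all identifiers are of mouse. How reads mapping to several genes were counted is not given in the sources used here. Positions were read from GENCODE M21 (GRCm38), which held 32158 of the identifiers, and promoter sequences from RefSeq.

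Spots with fewer than 200 detected genes were dropped (3, 1 and 2 spots). UMIs were added up over the spots of a class and scaled to 1000000 (CPM). Log2 ratios were centred on the median of the 12659 genes that had at least 50 UMIs over the 3 sections. The 95% intervals, exact Poisson for a sum and exact conditional binomial for a ratio, hold no variation between animals. Depth ran from 21631280 to 30238530 UMIs per section, and Psmb9, the sparsest immunosubunit, had 162 to 277 UMIs. With 1 section per condition no p-value was computed. Ratios were tested on simulated data with known changes.

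The text names the immunosubunits, their partners, the activators, Psmf1 and the 3 highest and 3 lowest members of each comparison. Members, lists and motifs were chosen with earlier results of these data known. Alternatives changed the scaling (no centring, no mitochondrial UMIs, TMM from edgeR 4.0.16, median of ratios, centring over genes with at least 500 UMIs), the weight or choice of spots, the percentile of Ankrd1, the depth (thinned to 6500 UMIs) and the fold (0.3). Computations ran in Python 3.11.15 (scipy 1.17.1).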

Additional observations from a re-analysis of the deposited data

How the results depend on the processing

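Alternatives were computed for the sums of core, regulatory and immunosubunit genes, the subunit pairs and the counts of members. None of these sums and pairs with an interval away from 0 changed sign. Single genes and other sums do without centring, as for Psme1 in I/R over sham (-0.17, and 0.07 without centring), Psma1 (-0.22 and 0.02) and the catalytic subunits in leukocyte-high spots of I/R (-0.37 and 0.47). TMM factors, median-of-ratios factors, all spots without a filter, thinning to 6500 UMIs, the sham 90th percentile of Ankrd1 and spots without the top 1% of UMIs moved none of the group ratios beyond their counting intervals. Log2 ratios without centring of I/R over sham were 0.38 (core), 0.37 (regulatory) and 0.47 (immunosubunits). In the same order they were -0.20, -0.20 and -0.11 for SBP over I/R. In SBP over sham the core and the regulatory genes were each at 0.18. For Ankrd1-high over other spots the ratios were 0.31, 0.42 and 0.50 in sham. They were 0.34, 0.39 and 0.23 in I/R and 0.29, 0.35 and 0.26 in SBP. With mitochondrial UMIs left out and no centring, the ratios were 0.27, 0.26 and 0.35 for I/R over sham. They were -0.15, -0.14 and -0.054 for SBP over I/R, and by Ankrd1 0.20, 0.32 and 0.39 in sham. For core and regulatory genes by Ankrd1 they were 0.21 and 0.26 in I/R and 0.21 and 0.27 in SBP. With equal weight for each spot, I/R over sham was 0.10 for the core and 0.32 for the immunosubunits, the core by Ankrd1 in I/R was 0.14, and the change of Psmb8 against Psmb5 was 0.89. Without leukocyte-high spots, an alternative chosen after seeing the data, the core was at 0.19 and the immunosubunits at 0.067 for I/R over sham, and in SBP over I/R they were at -0.071 and 0.18. In these spots Psmb8 against Psmb5 changed by 0.22 and 0.51 in the 2 comparisons, and Psmb10 against Psmb7 by -0.19 for I/R over sham. Centring over genes with at least 500 UMIs gave -0.056 and -0.055 for core and regulatory genes in SBP over I/R. The sham 99th percentile of Ankrd1 gave 0.15 for the core in I/R and 0.19 for the regulatory genes in SBP. In sham it put the core at 0.096, in place of -0.026. At a fold of 0.3, 8 members were higher and 3 lower in I/R than in sham (26.3% and 24.6% of all genes), 2 were higher in SBP than in I/R (18.2%) and 3 in SBP than in sham (15.2%), and by Ankrd1 9 were higher and 4 lower in sham (28.5% and 29.5%), 4 higher in I/R (18.1%) and 7 higher in SBP (24.5%). Without centring, 12 members were higher by at least 0.5 in I/R over sham (28.8% of all genes), and by Ankrd1 the sham section had 14 (37.4%), I/R 6 (21.3%) and SBP 7 (24.9%). The limit of at least 500 UMIs, which also sets the centring, leaves out Psme2b, the only lower member in either comparison with sham. Over these genes, 0 members were lower in I/R over sham (10.2% of all genes) and in SBP over sham (2.67%). By Ankrd1 6 were higher in sham (12.9% of all genes), 1 was lower in I/R (10.4%) and 1 was higher in SBP (8.14%). Beyond the construction of each alternative, the cause of these shifts was not tested. No paired analysis was possible because a single section stands for each condition. With 1 animal per condition, differences between animals, sections and conditions cannot be told apart.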

Other observations

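Levels also varied between spots of a section. Core genes had a median of 11.7 UMIs per 10000 in sham spots, with 80% of spots between 7.32 and 17.4. In I/R the median was 15.0, with a range of 9.28 to 25.6, and in SBP it was 13.4, with a range of 8.27 to 20.3. The upper end was thus farthest from the median in I/R. No immunosubunit UMI was detected in 1142 of 2234 sham spots, 682 of 2082 I/R spots and 832 of 1960 SBP spots, a count that moves with the depth of the spots as well as with the level.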
